A study of Arabidopsis thaliana with 24 samples.

Results

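The genes described here are 10 Arabidopsis thaliana loci of the jasmonate pathway: the synthesis genes LOX2 (AT3G45140), AOS (AT5G42650) and OPR3 (AT2G06050), the transcription factor MYC2 (AT1G32640), the repressors JAZ1 (AT1G19180), JAZ5 (AT1G17380), JAZ7 (AT2G34600) and JAZ10 (AT5G13220), and the storage proteins VSP1 (AT5G24780) and VSP2 (AT5G24770). They were matched by locus or symbol to the gene annotation that the authors deposited beside their cell comparison, and probe sets that name several genes were set aside. Of the 10 loci, 8 had a probe set of their own, out of 20222 genes with one on the array. VSP1 and VSP2 lie next to each other in the genome, with 0 protein-coding genes between them, and share 1 probe set. Its values are given as a joint reading of both genes and enter no count of members.

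Jasmonates are lipid hormones made from linolenic acid. Plastid enzymes (lipoxygenases, then allene oxide synthase and allene oxide cyclase) make the precursor OPDA, which OPR3 reduces in the peroxisome before the side chain is shortened by beta-oxidation. The isoleucine conjugate binds the receptor COI1, JAZ proteins are then degraded, and MYC2 and its relatives are freed. JAZ genes are themselves targets of MYC2, so their transcripts are used as a readout of jasmonate signalling, and vegetative storage proteins are classical jasmonate-induced genes of shoots and seedlings.

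The study measured 24 single-label arrays in 4 groups of 6, all of the Col-0 cultivar and without a transgene. Flight cells were undifferentiated tissue culture cells derived from hypocotyls, kept on agar in the dark inside BRIC canisters, passive hardware for small payloads, and preserved by RNAlater while still in orbit, 12 days and 21 hours after reaching it. Ground cells were the same material at unit gravity in canisters at the same positions. Flight seedlings were etiolated, dark-grown seedlings from seed stored at 4 °C and planted at about 75 per plate, flown and fixed in the same way. Ground seedlings were their counterparts at unit gravity. The labels give an age of 7 days for every group, and how that relates to the time in orbit is not stated in the sources used here. A deposited file description calls the 6 arrays of a group biological replicates, and nothing says whether each dish held a separate culture, so p-values refer to the spread among these arrays, which may be technical in part.

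A level below is log2(deposited intensity + 16). A probe set was read as above background on an array where it exceeded the 95th percentile of 27 unspiked bacterial control probe sets there. By that measure flight cell arrays read 26.3% ± 25.6 of probe sets above background, against 18.7% ± 4.72 on ground cell arrays, and 62.0% ± 3.54 on flight seedling arrays, against 49.9% ± 8.68 on ground seedling arrays (SD, n = 6 each). Flight cell replicate 5 stood apart at 76.7%, and ground seedling replicate 1 was the lowest seedling array at 39.0%. The median correlation between arrays of a group was 0.304 in flight cells and 0.315 in ground cells, against 0.890 in flight seedlings and 0.813 in ground seedlings. Of 6 photosynthesis markers, all were above background on at least 3 flight seedling arrays and 3 were on ground seedling arrays, and none were in either group of cells. Of 8 root markers, 3 were above background in each seedling group, 1 in flight cells and 0 in ground cells. Of 6 shoot epidermis markers, 5 were above background in each seedling group and 0 in either group of cells. Most cell arrays had a higher background than the seedling arrays, so these counts do not show that a marker was absent from cells. The summed intensity of the photosynthesis markers had a median of 2817 in flight cells and 2197 in ground cells, against 2352 in flight seedlings and 1181 in ground seedlings.

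In the seedlings, 4 of the 8 members (AOS, OPR3, MYC2 and JAZ1) were above background on all 12 arrays, and the cell arrays measured only JAZ1 well. JAZ1 was above background on 6 of 6 flight cell arrays and 5 of 6 ground cell arrays, and AOS on 4 of 6 in each group of cells. MYC2 was above background on 2 cell arrays of each condition. LOX2, OPR3, JAZ5, JAZ7 and JAZ10 were above background on 0 to 2 flight cell arrays and on 0 ground cell arrays. The plot of levels also marks the array background itself, which was between log2 7.55 and 10.3 on cell arrays, against 6.58 to 8.02 on seedling arrays.

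**Figure D1:**
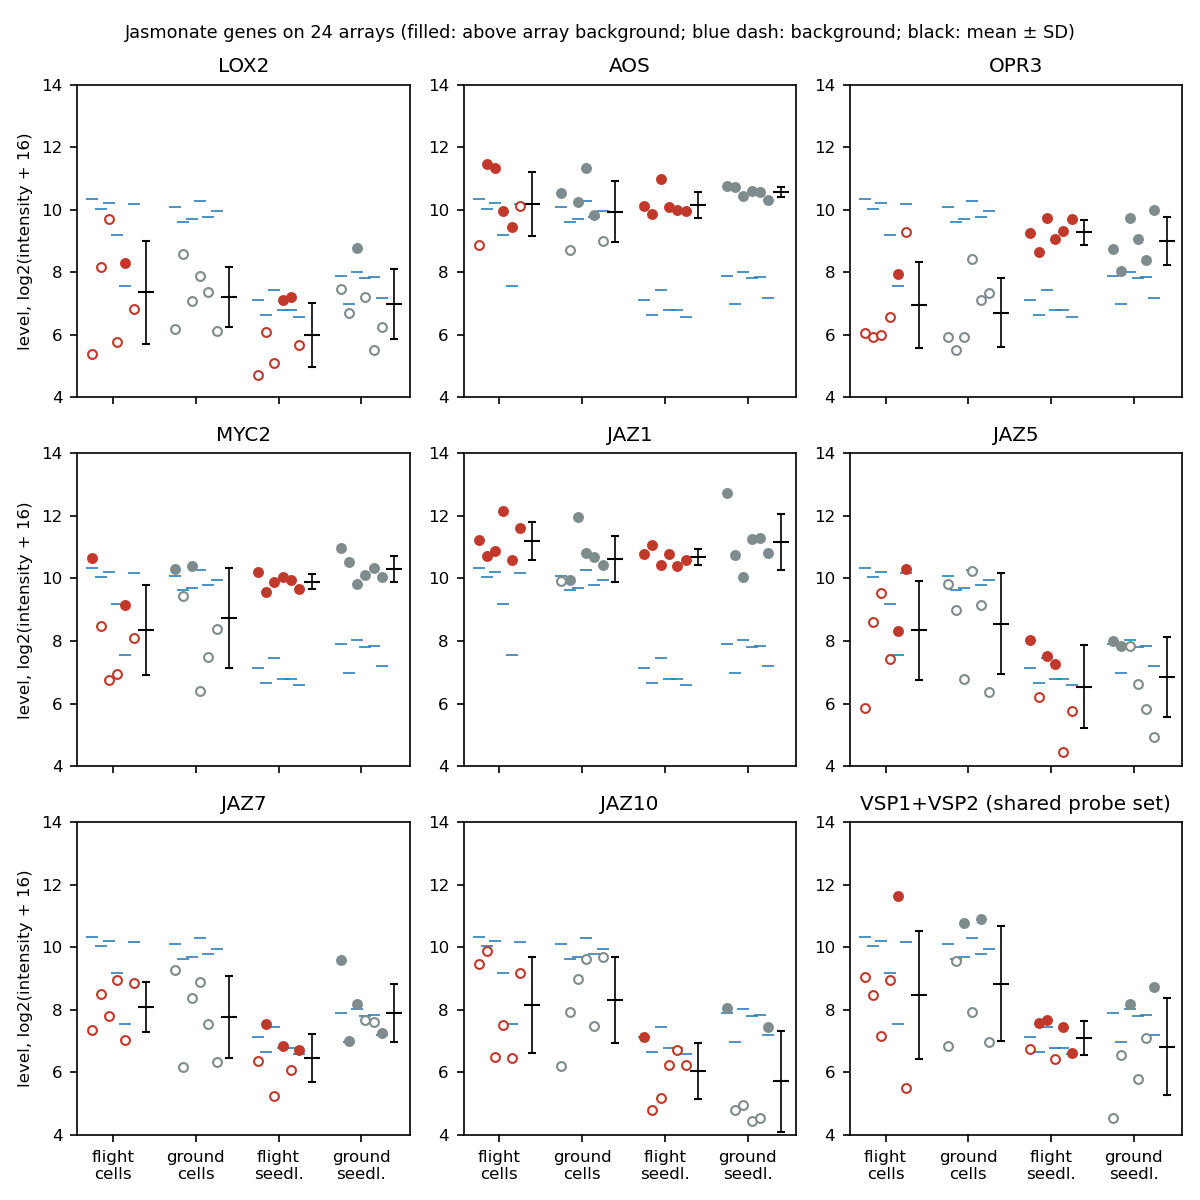
Level, as log2(intensity + 16), of the 8 jasmonate genes and of the probe set shared by VSP1 and VSP2 on each of the 24 arrays (red, flight; grey, ground; filled points lie above that array's background, marked by a blue dash; black bars are the mean ± SD of 6 arrays). AOS, OPR3, MYC2 and JAZ1 lie above the dashes on every seedling array, while most cell points of the other genes are open and lie below theirs.

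The order of the 4 group means differed from gene to gene, and most neighbours in it lay within 1 SD of each other. For JAZ1 the order was flight cells (11.20 ± 0.60), ground seedlings (11.16 ± 0.90), flight seedlings (10.67 ± 0.26) and ground cells (10.62 ± 0.75), with no gap between neighbours larger than both their SDs. AOS, the enzyme that turns the lipoxygenase product into an allene oxide, ran from ground seedlings (10.57 ± 0.16) through flight cells (10.19 ± 1.02) and flight seedlings (10.16 ± 0.41) to ground cells (9.94 ± 0.98), again with no such gap. MYC2 ran from ground seedlings (10.30 ± 0.40) through flight seedlings (9.89 ± 0.24) to ground cells (8.74 ± 1.61) and flight cells (8.35 ± 1.45), and the step from seedlings to cells was smaller than the SD of either group of cells.

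OPR3 read 9.28 ± 0.40 in flight seedlings, 9.0 ± 0.76 in ground seedlings, 6.96 ± 1.37 in flight cells and 6.71 ± 1.11 in ground cells. The neighbours within each material did not differ beyond their spread. For LOX2, OPR3, JAZ5, JAZ7, JAZ10 and the VSP probe set the means in cells lay within or under the range of the cell arrays' background, so their order across materials is not a measured order of transcript level.

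Flight was compared with ground in the seedlings to ask which transcripts differ in the spaceflight environment. None of the 8 members passed the test at an adjusted p of 0.05 in limma, against 4 of 22746 probe sets (0.0176%, with 0.0044% higher and 0.0132% lower), and 1 member had an unadjusted p under 0.05, against 8.01% of all probe sets. The member farthest apart was JAZ7, lower in flight, and AOS, MYC2, JAZ1, JAZ5 and LOX2 also had lower flight means. OPR3 and JAZ10 had higher flight means. In whole seedlings, fewer cells of a type and less RNA per cell cannot be told apart.

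LOX2, a plastid 13-lipoxygenase that supplies most of the wound-induced jasmonate of leaves, read 4.73, 6.08, 5.10, 7.12, 7.21 and 5.66 in the flight seedlings, against 7.48, 6.70, 8.76, 7.20, 5.53 and 6.23 in the ground seedlings. It was above background on only 2 flight arrays and 1 ground array, and the groups overlapped over most of their range. The difference was -1.0 (SE 0.56, 95% interval -2.21 to 0.20, adjusted p = 0.68).

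AOS read 10.11, 9.86, 10.98, 10.09, 9.98 and 9.95 in flight seedlings, against 10.75, 10.72, 10.44, 10.59, 10.57 and 10.32 in ground seedlings. All flight arrays except replicate 3 lay below every ground array, and replicate 3 lay above every ground array. The difference was -0.41 (SE 0.27, 95% interval -0.98 to 0.17, adjusted p = 0.713, exact permutation p = 0.0606). It was -0.41 within canister A (5 arrays each) and -0.37 between the single arrays of canister G.

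OPR3, the OPDA reductase needed for jasmonate synthesis and for male fertility, read 9.25, 8.64, 9.72, 9.08, 9.31 and 9.69 in flight seedlings, against 8.75, 8.04, 9.74, 9.07, 8.38 and 9.99 in ground seedlings. The flight arrays lay inside the ground range. The difference was 0.28 (SE 0.37, 95% interval -0.51 to 1.08, adjusted p = 0.839), and it was 0.40 within canister A and -0.30 between the arrays of canister G.

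MYC2, the basic helix-loop-helix factor that switches on jasmonate targets, read 10.21, 9.58, 9.88, 10.05, 9.97 and 9.67 in flight seedlings, against 10.97, 10.51, 9.83, 10.12, 10.35 and 10.04 in ground seedlings. No flight array lay above the ground mean, and the ranges overlapped between 9.83 and 10.21. The difference was -0.41 (SE 0.27, 95% interval -1.0 to 0.18, adjusted p = 0.714, exact permutation p = 0.0563). Canister A gave -0.42 and canister G -0.37.

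JAZ1, a repressor that binds MYC2 and is itself induced early by jasmonate, read 10.79, 11.06, 10.42, 10.80, 10.40 and 10.58 in flight seedlings, against 12.73, 10.74, 10.06, 11.27, 11.30 and 10.83 in ground seedlings. The flight arrays stayed inside the ground range, whose top was replicate 1. The difference was -0.48 (SE 0.39, 95% interval -1.31 to 0.35, adjusted p = 0.749, exact permutation p = 0.249), and without ground replicate 1, an omission chosen after seeing the data, it was -0.17 (adjusted p = 0.895).

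JAZ7, which lacks the sequence through which most JAZ proteins are recognised by COI1 and recruits a corepressor directly, read 6.37, 7.53, 5.25, 6.85, 6.08 and 6.73 in flight seedlings, against 9.61, 7.00, 8.19, 7.68, 7.62 and 7.26 in ground seedlings. Only flight replicate 2 reached into the ground range, and every flight array lay below the ground mean. JAZ7 was above background on 3 flight arrays and 4 ground arrays. The difference was -1.42 (SE 0.47, 95% interval -2.43 to -0.42), with an unadjusted p of 0.00883, an adjusted p of 0.481 in limma and an exact permutation p of 0.0108.

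JAZ7 kept its sign in each fit that left out 1 array, between -1.64 and -1.08, and its adjusted p was 0.365 or higher in those fits and 0.461 or higher under the other settings tried. The value of -1.08 was the one without ground replicate 1 (adjusted p = 0.46). Canister A gave -1.60 and canister G -0.53. In the authors' deposited table the log2 fold change of JAZ7 in seedlings was -1.56, with a p of 0.032 and a q of 0.404.

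JAZ5 read between 4.46 and 8.02 in flight seedlings, against 4.93 to 8.01 in ground seedlings, with a difference of -0.31 (SE 0.67, adjusted p = 0.914). JAZ10, whose splice forms escape degradation and damp the response, read between 4.79 and 7.13 in flight seedlings, against 4.46 to 8.07 in ground seedlings, with a difference of 0.33 (SE 0.67, adjusted p = 0.906). Both overlapped over nearly the whole range and were above background on 1 to 3 arrays of a group. The shared VSP1 and VSP2 probe set read 6.76, 7.58, 7.68, 6.44, 7.45 and 6.63 in flight seedlings, against 4.54, 6.55, 8.20, 5.78, 7.09 and 8.73 in ground seedlings, with a difference of 0.28 (SE 0.60, adjusted p = 0.916). It was above background on 4 flight arrays and 2 ground arrays, and the flight arrays lay inside the wider ground range. The arrays of canister G went against those of canister A for JAZ5 (0.84 in G and -0.54 in A), JAZ10 (-1.23 in G and 0.64 in A) and the VSP probe set (-2.10 in G and 0.75 in A). Without ground replicate 1 the differences were -0.08 for JAZ5, 0.80 for JAZ10 and -0.18 for the VSP probe set, with adjusted p-values from 0.742 to 0.986.

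The median difference of the 8 members in seedlings was -0.41, with 6 below 0 and 2 above, against a median of -0.02 over all probe sets tested. No member's flight and ground seedlings were fully separated, against 0.655% of probe sets. Flight seedling arrays also had more probe sets above background than ground arrays. The summed intensity of the 6 photosynthesis markers had a low, median and high of 1842, 2352 and 3010 in flight seedlings, against 711.5, 1181 and 1438 in ground seedlings. All 6 had higher flight means, 5 at an unadjusted p under 0.05 and 0 after adjustment, and their part in the jasmonate values was not tested. The shoot epidermis markers summed to 3242, 6053 and 7741 in flight seedlings, against 423, 2968 and 3621 in ground seedlings. Among these 6, 5 had higher flight means and 1, CER1, a lower one. At an unadjusted p under 0.05 there were 2, and 0 after adjustment, and their part was not tested either. The root markers summed to 1183, 1633 and 1944 in flight seedlings, against 965.3, 2258 and 2857 in ground seedlings. Of the 8, 6 had lower flight means, 1 at an unadjusted p under 0.05 and 0 after adjustment, with a median of -0.43, and their part was likewise not tested.

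**Figure D2:**
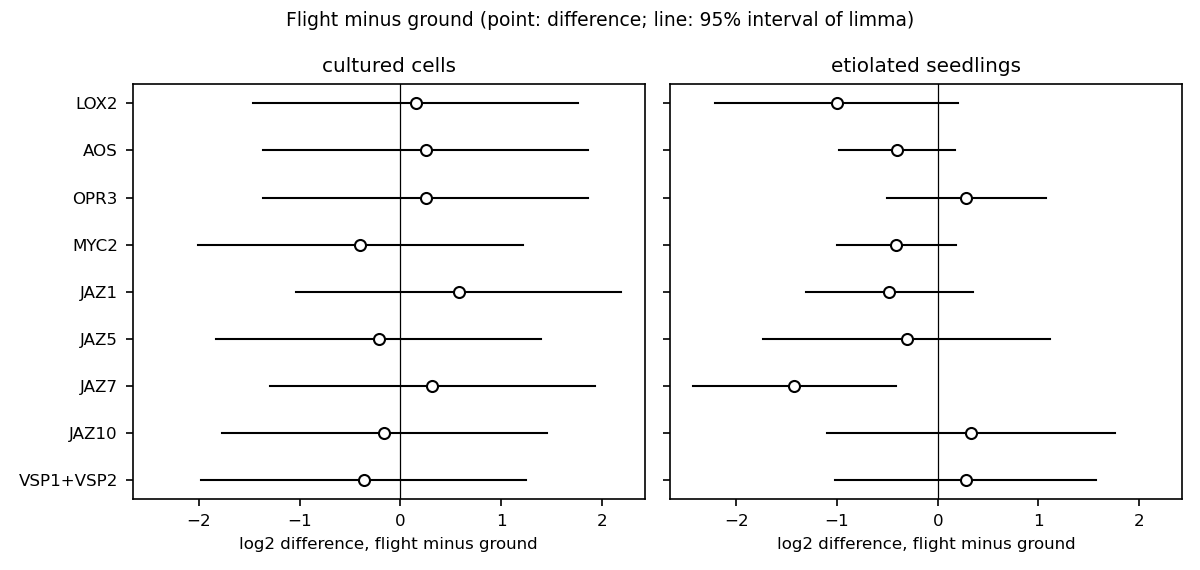
Difference in level, flight minus ground, with limma's 95% interval, for the 8 genes and the probe set shared by VSP1 and VSP2, in cultured cells (left) and etiolated seedlings (right). In seedlings the interval of JAZ7 (-2.43 to -0.42) lies below 0 before adjustment, and every interval in cells spans 0 and is wider than 3 log2 units.

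In the cultured cells, flight and ground did not separate for any member. None of the 8 passed the test in limma, against 8 of 22746 probe sets (0.0352%), and 0 had an unadjusted p under 0.05, against 5.76% of all probe sets. JAZ1, the best measured member in cells, had the highest difference. Its flight values were 11.24, 10.72, 10.87, 12.17, 10.59 and 11.61, against 9.93, 9.94, 11.95, 10.81, 10.68 and 10.42 in ground cells. Of the 6 flight arrays, 5 lay above the ground mean, and ground replicate 3 was the second highest of all 12.

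The JAZ1 difference in cells was 0.58 (SE 0.82, 95% interval -1.03 to 2.20, adjusted p = 0.978, exact permutation p = 0.162). Canister B (4 arrays each) gave 0.59 and canister G (2 arrays each) gave 0.56, and without flight replicate 5, an omission chosen after seeing the data, it was 0.70 (adjusted p = 0.984). The authors' deposited table lists JAZ1 in cells at a log2 fold change of 0.79 with a p of 0.0584 and a q of 0.832. The standard error of 0.82 is the same for every member in cells, because limma drew the variances of these 12 arrays to a common value.

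AOS read 8.87, 11.44, 11.33, 9.94, 9.46 and 10.11 in flight cells, against 10.53, 8.71, 10.23, 11.34, 9.83 and 9.01 in ground cells, with a difference of 0.25 (95% interval -1.36 to 1.86, adjusted p = 0.988). MYC2 read 10.64, 8.49, 6.76, 6.96, 9.14 and 8.09 in flight cells, against 10.32, 9.45, 10.41, 6.41, 7.49 and 8.38 in ground cells, with a difference of -0.40 (95% interval -2.01 to 1.22, adjusted p = 0.978). Both genes spread over more than 2 log2 units in each group, and the groups overlapped almost entirely. Within canisters MYC2 took opposite signs, -0.93 in B and 0.68 in G, and AOS gave 0.20 in B and 0.37 in G.

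LOX2 (7.36 ± 1.65 in flight cells and 7.20 ± 0.95 in ground cells), OPR3 (6.96 ± 1.37 in flight cells and 6.71 ± 1.11 in ground cells) and JAZ5 (8.34 ± 1.57 in flight cells and 8.56 ± 1.61 in ground cells) were not well above background on any ground cell array, and their bounds gave no fold. JAZ7 (8.09 ± 0.81 in flight cells and 7.77 ± 1.31 in ground cells) and JAZ10 (8.17 ± 1.53 in flight cells and 8.32 ± 1.37 in ground cells) were not well above background on any cell array of either condition. Their adjusted p-values lay between 0.982 and 0.994. The shared VSP probe set read from 5.52 to 11.63 in flight cells, against 6.84 to 10.92 in ground cells (difference -0.36, adjusted p = 0.979), a wider spread than that of any member. Its highest reading, 11.63, was on flight replicate 5, the array with the most probe sets above background, and without that array the difference was -1.0.

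The median difference of the members in cells was 0.20, with 5 above 0 and 3 below, against 0.007 over all probe sets. No member's flight and ground cells were fully separated, against 0.268% of probe sets. Only AOS and JAZ1 were above background on at least 6 of the 12 arrays, and the other 6 members were on at most 4.

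The difference of the flight effects, cells minus seedlings, was fitted over all 24 arrays. No member passed the test, against 0 of 22746 probe sets (0%), and limma gave 0 members and 6.63% of probe sets an unadjusted p under 0.05. JAZ7 came closest, with a difference of 1.74 (SE 0.89, 95% interval -0.05 to 3.53, adjusted p = 0.763), although it was not well above background in cells. JAZ1, which was measured in both materials, differed by 1.06 (SE 0.81, 95% interval -0.56 to 2.69, adjusted p = 0.853): its mean was higher in flight cells than in ground cells and lower in flight seedlings than in ground seedlings. AOS differed by 0.66 (95% interval -1.0 to 2.32, adjusted p = 0.929), MYC2 by 0.01 (95% interval -1.85 to 1.88, adjusted p = 0.998) and OPR3 by -0.04 (95% interval -1.82 to 1.75, adjusted p = 0.995).

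Cells were then compared with seedlings under each condition, to place the pathway in cells without organs against whole seedlings. OPR3 read lower in cells under both conditions and passed the test under each scaling and each left-out array tried, although it was above background on only 1 of 12 cell arrays. In flight OPR3 averaged 6.96 ± 1.37 in cells and 9.28 ± 0.40 in seedlings (SD, n = 6 each), with an adjusted p of 0.00285 in limma and an exact permutation p of 0.00866. On the ground OPR3 averaged 6.71 ± 1.11 in cells and 9.0 ± 0.76 in seedlings (adjusted p = 0.00441, exact permutation p = 0.00649). It was not well above background on any ground cell array, and with those arrays set to their background the bound gave no fold. On flight cell replicate 5, the 1 cell array that read it above background, OPR3 was at 7.94, and the other cell arrays had a background of 9.19 to 10.3, about as high as the seedling readings or higher.

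The call is therefore one on readings, and no size of the difference is given. All 6 ground cell arrays lay below the mean of the ground seedlings, and flight cell replicate 6, at 9.29, was the 1 flight cell array above the mean of the flight seedlings. Most cells and seedlings sat in different canisters. In canister G, which held both, OPR3 averaged 8.62 in 2 flight cell arrays and 9.69 in 1 flight seedling array, and 7.23 in 2 ground cell arrays and 9.99 in 1 ground seedling array.

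The other material calls were weaker. On the ground 2 of 8 members passed, OPR3 (lower in cells, as were 10.5% of probe sets) and JAZ10 (higher, as were 27.6%), against 38.1% of probe sets in either direction. In flight 5 of 8 passed, OPR3 and MYC2 (lower, as were 12.5%) and JAZ5, JAZ7 and JAZ10 (higher, as were 32.9%), against 45.4% in either direction. At an unadjusted p under 0.05 in limma the counts were 6 of 8 in flight, against 53.1% of probe sets, and 4 of 8 on the ground, against 48.6%. Set beside these shares, none of the counts is a result about the members as a group. The median of all probe sets was itself 0.77 higher in cells on the ground and 0.75 higher in flight. With quantile normalization that shift was 0.14 on the ground and 0.07 in flight, and OPR3 was the 1 member still called in each condition. Of the probe sets called, 72.4% were higher in cells in each condition, and with quantile normalization 46.3% were in flight and 41.6% on the ground.

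JAZ10 averaged 8.17 ± 1.53 in flight cells and 6.05 ± 0.90 in flight seedlings (adjusted p = 0.015), and 8.32 ± 1.37 in ground cells and 5.72 ± 1.61 in ground seedlings (adjusted p = 0.00455). It was not well above background on any cell array, so the call gives no fold, and with quantile normalization the adjusted p was 0.253 in flight and 0.0993 on the ground. JAZ7 averaged 8.09 ± 0.81 in flight cells and 6.47 ± 0.77 in flight seedlings (adjusted p = 0.0318) with no flight cell array above background. With quantile normalization the adjusted p of JAZ7 was 0.388. The JAZ7 call was lost without any 1 of flight cell replicates 2, 4 or 6 or flight seedling replicates 1, 3 or 5 (adjusted p from 0.0517 to 0.0864), and with a trended prior (0.0516).

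JAZ5 averaged 8.34 ± 1.57 in flight cells and 6.54 ± 1.32 in flight seedlings, a difference of 1.80 (SE 0.74, adjusted p = 0.0421, exact permutation p = 0.0584), with 2 flight cell arrays and 3 flight seedling arrays above background. The call was lost without any 1 of flight cell replicates 2, 3, 5 or 6 or flight seedling replicates 2, 5 or 6 (1.39 to 1.81), with a pseudocount of 1 (2.15, adjusted p = 0.0517) and with quantile normalization (0.96, adjusted p = 0.358). MYC2 averaged 8.35 ± 1.45 in flight cells and 9.89 ± 0.24 in flight seedlings, a difference of -1.55 (SE 0.66, adjusted p = 0.0491, exact permutation p = 0.0303). It was lost without any 1 of flight cell replicates 2, 3, 4 or 6 or any 1 flight seedling array (-1.61 to -1.23), with a pseudocount of 1 (-1.62, adjusted p = 0.0599) and with quantile normalization (-1.81, adjusted p = 0.0547).

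On the ground MYC2 differed by -1.56 (SE 0.66, adjusted p = 0.054) and passed without any 1 of ground cell replicates 1, 2 or 3 (-1.89 to -1.70). JAZ5 averaged 8.56 ± 1.61 in ground cells and 6.85 ± 1.27 in ground seedlings (adjusted p = 0.0612), with no cell array above background, and passed without ground cell replicate 3 (adjusted p = 0.031) or 6 (0.0244) or ground seedling replicate 1 (0.0455). JAZ1 and AOS, the members measured in both materials, passed in neither condition: JAZ1 differed by 0.53 in flight (95% interval -0.62 to 1.68) and -0.53 on the ground (95% interval -1.69 to 0.62), and AOS by 0.03 in flight (95% interval -1.15 to 1.21) and -0.63 on the ground (95% interval -1.80 to 0.55). LOX2 differed by 1.38 in flight (adjusted p = 0.0922) and passed without flight cell replicate 1 (1.77) or 4 (1.69).

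The shared VSP probe set averaged 8.83 ± 1.84 in ground cells and 6.82 ± 1.55 in ground seedlings, a difference of 2.02 (SE 0.78, adjusted p = 0.0362, exact permutation p = 0.0714), with 2 arrays of each group above background. This call was lost without any 1 of ground cell replicates 2, 3 or 5 or ground seedling replicates 1, 2 or 4 (1.56 to 1.97), and with quantile normalization (1.72, adjusted p = 0.143). In flight the difference was 1.38 (adjusted p = 0.141), and it passed without flight cell replicate 6 (1.97, adjusted p = 0.0362). No member had cells and seedlings that were fully separated, against 16.6% of probe sets in flight and 9.7% on the ground.

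**Figure D3:**
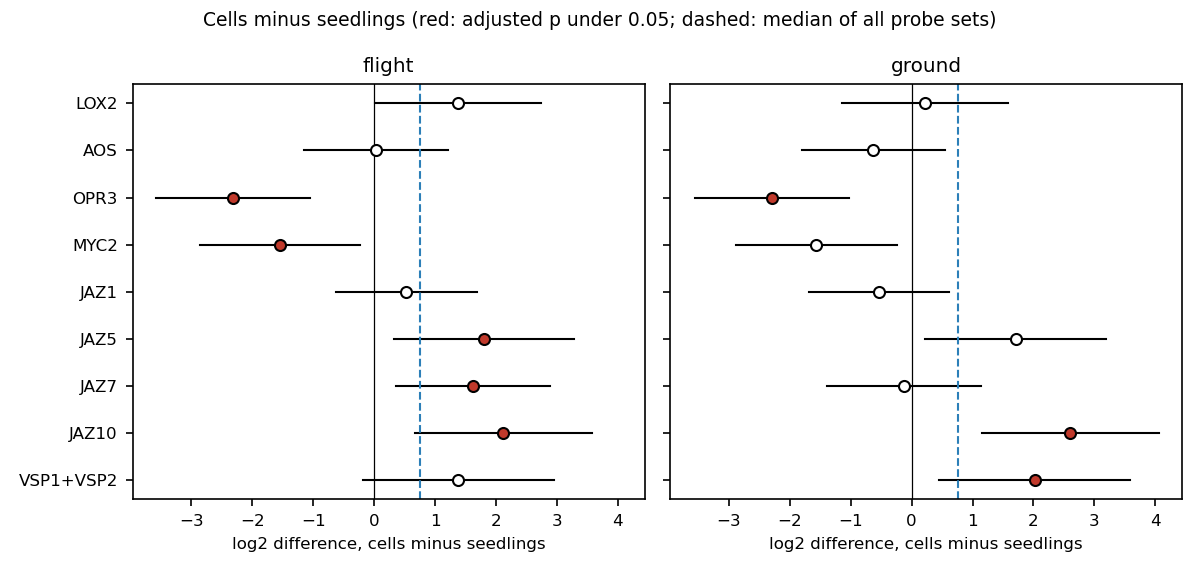
Difference in level, cells minus seedlings, with limma's 95% interval, in flight (left) and on the ground (right); red points have an adjusted p under 0.05, and the dashed line is the median of all probe sets (0.75 in flight, 0.77 on the ground). OPR3, above background on 1 of 12 cell arrays, and MYC2 lie farthest below 0 in both panels, and the red points above 0 are probe sets that 0 to 2 cell arrays of a group read above background.

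A further 57 pathway genes with probe sets of their own were read in 5 lists: other synthesis genes, conjugation and turnover, other JAZ genes and corepressors, receptor and transcription factors, and other responsive genes. In flight against ground, 0 of the 57 passed in cells or in seedlings with limma. In cells 1 had an unadjusted p under 0.05, against 5.76% of all probe sets, and the median difference was -0.10. In seedlings 6 had an unadjusted p under 0.05, against 8.01% of all probe sets, 22 differences were above 0 and 35 below, and the median was -0.16.

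By list, the seedling medians were -0.31 for 14 other synthesis genes, -0.15 for 11 conjugation and turnover genes, -0.03 for 9 other JAZ genes and corepressors, -0.28 for 14 receptor and transcription factor genes and 0.09 for 9 other responsive genes. OPCL1, the ligase that activates the OPR3 product for beta-oxidation, averaged 7.24 ± 0.69 in flight seedlings and 6.05 ± 0.86 in ground seedlings (adjusted p = 0.519), with 3 flight arrays and 0 ground arrays over background. CYP94C1, which oxidises and so inactivates the hormone conjugate, averaged 6.25 ± 1.17 in flight seedlings and 5.13 ± 0.35 in ground seedlings (adjusted p = 0.583), again with 3 flight arrays and 0 ground arrays over background.

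JAZ8, which like JAZ7 escapes COI1, averaged 4.44 ± 0.25 in flight seedlings and 5.94 ± 1.56 in ground seedlings (adjusted p = 0.558), with 0 flight arrays and 1 ground array above background. THI2.1, a thionin, averaged 5.89 ± 1.01 in flight seedlings and 5.15 ± 0.30 in ground seedlings (adjusted p = 0.683) and was not well above background in either. ANAC055, a NAC transcription factor downstream of MYC2, averaged 8.89 ± 0.32 in flight seedlings and 10.17 ± 1.84 in ground seedlings (difference -1.27, SE 0.68, adjusted p = 0.663). All 6 arrays of each group were above background.

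In cells the smallest p of each list belonged to OPCL1, JOX2, NINJA, MYB24 and the defensin PDF1.2A, with adjusted p-values from 0.86 to 0.926. OPCL1 averaged 6.93 ± 1.78 in flight cells and 8.27 ± 1.42 in ground cells, and JOX2 averaged 8.11 ± 1.52 in flight cells and 6.74 ± 1.47 in ground cells. NINJA averaged 7.34 ± 1.55 in flight cells and 8.75 ± 1.58 in ground cells, and MYB24 averaged 7.33 ± 1.04 in flight cells and 8.99 ± 0.90 in ground cells. JOX2 is a jasmonate oxidase, NINJA links JAZ proteins to the TOPLESS corepressor, and MYB24 acts downstream of jasmonate in stamens. Each was above background on at most 2 arrays of a group, and these are given as levels, with no fold.

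**Figure D4:**
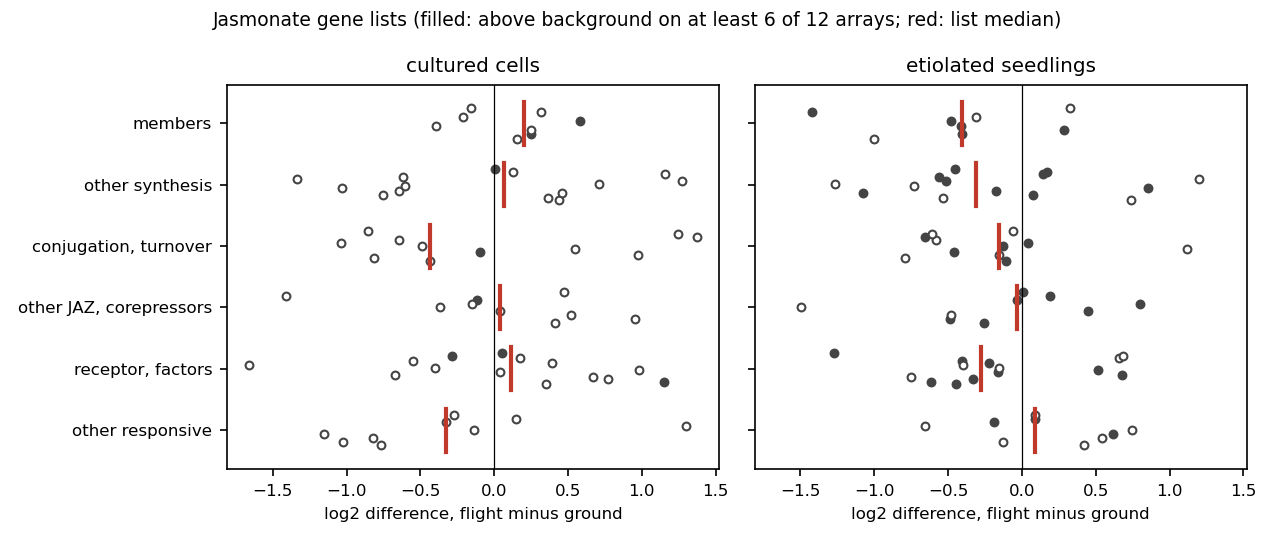
Difference in level, flight minus ground, of each gene of 6 jasmonate lists in cultured cells (left) and etiolated seedlings (right); each point is a gene, filled where it was above background on at least 6 of the 12 arrays compared, and the red bar is the list median. The medians run from -0.43 to 0.20 in cells and from -0.41 to 0.09 in seedlings, and no point passed the test.

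Between the materials, more of the further genes passed. In flight 22 of the 57 were higher in cells, against 32.9% of probe sets, 12 were lower, against 12.5%, and 23 did not pass. On the ground 17 were higher, against 27.6%, 10 were lower, against 10.5%, and 30 did not pass. These shares move with the scaling, as given above for quantile normalization. Their medians were 0.95 in flight and 0.80 on the ground, beside 0.75 in flight and 0.77 on the ground for all probe sets. Of the genes higher in cells, 3 of 22 in flight and 0 of 17 on the ground were above background on at least 4 of the 6 cell arrays. Of the genes lower in cells, 12 of 12 in flight and 9 of 10 on the ground were above background on all 6 seedling arrays.

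Among the other synthesis genes, the lower calls in cells included ACX1, AIM1 and FAD3. ACX1, an acyl-CoA oxidase of jasmonate side-chain shortening, averaged 7.34 ± 2.25 in flight cells and 10.00 ± 0.08 in flight seedlings (adjusted p = 0.00248). It was above background on only 1 of 6 flight cell arrays, so no size of that difference is given. On the ground, with 0 cell arrays above background, ACX1 was at least 1.58-fold lower (7.95 ± 1.36 in cells and 10.56 ± 0.47 in seedlings, adjusted p = 0.00405). That bound includes ground seedling replicate 1 (11.35, against at most 10.76 on the other ground seedling arrays) and would be smaller without it. The lowest ground seedling reading, 10.085, lay under the background of ground cell replicate 4 (10.284). AIM1, the next enzyme of that spiral, was called lower in ground cells (adjusted p = 0.00631). Its bound was only 1.03-fold, from a ground seedling level of 9.94 ± 0.46, so no minimum is read from it. FAD3, a desaturase that makes linolenic acid, was called lower in flight cells (adjusted p = 0.00314). It averaged 7.96 ± 1.43 in flight cells and 10.40 ± 0.35 in flight seedlings. Only 1 of 6 flight cell arrays read FAD3 above background, so no size of the difference is given.

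LOX4, DGL, LOX3 and OPCL1 were the synthesis genes with the largest calls in the other direction. LOX4 averaged 9.49 ± 1.11 in flight cells and 6.58 ± 0.90 in flight seedlings (adjusted p = 0.000352) and was above background on 2 flight cell arrays and 3 flight seedling arrays. DGL in flight, and LOX3 and OPCL1 on the ground, were not well above background in either material, and with quantile normalization the adjusted p was 0.11 for LOX3 and 0.125 for OPCL1.

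Among the conjugation and turnover genes, ST2A, a hydroxyjasmonate sulfotransferase, was called lower in flight cells (adjusted p = 0.0114). It averaged 7.225 ± 1.123 in flight cells and 9.269 ± 0.388 in flight seedlings. Only flight cell replicate 5 had a background under 9.19, and only 1 flight cell array read ST2A above background, so no fold is given. JOX2 was called lower in ground cells (6.74 ± 1.47 in cells and 9.98 ± 1.39 in seedlings, adjusted p = 0.000475), with no ground cell array above background. Its bound rested on ground seedling replicate 1 (12.39, against at most 10.45 on the other ground seedling arrays), so no fold is given. The largest calls in the other direction were other jasmonate oxidases, each on 0 to 2 cell arrays above background, so no fold is given. JOX3 read 8.02 ± 1.21 in flight cells and 4.93 ± 0.59 in flight seedlings (adjusted p = 0.000491). JOX1 read 8.44 ± 1.46 in ground cells and 5.88 ± 1.34 in ground seedlings (adjusted p = 0.00366). JOX4 read 8.46 ± 1.87 in ground cells and 5.87 ± 1.13 in ground seedlings (adjusted p = 0.00481) and lost that call with quantile normalization (adjusted p = 0.0613). JOX1 was also called in flight, where it was not well above background in either material (adjusted p = 0.00325, and 0.1 with quantile normalization).

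Among the repressor partners, TPL, the TOPLESS corepressor, averaged 9.09 ± 1.42 in ground cells and 11.08 ± 0.25 in ground seedlings (-1.99, SE 0.59, adjusted p = 0.00728). NINJA was called lower in flight cells (adjusted p = 0.0034), with no flight cell array above background. Its bound rested on flight cell replicate 5, which had a background of 7.55, so no fold is given. The other flight cell arrays had backgrounds of 9.19 to 10.3, against a flight seedling mean of 9.72 for NINJA. JAZ12 was lower in cells in flight (-1.72, adjusted p = 0.0227) and on the ground (-1.63, adjusted p = 0.0356). That call was lost with quantile normalization in both, without flight cell replicate 2 (-1.22) or 5 (-1.41), and without ground cell replicate 1 (-1.38) or 6 (-1.58) or ground seedling replicate 1 (-1.34) or 3 (-1.56).

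JAZ3 was higher in flight cells (9.65 ± 0.74 in cells and 7.60 ± 0.64 in seedlings, adjusted p = 0.00464, and 0.0671 with quantile normalization), with 3 of 6 cell arrays above background. JAZ8 read 7.72 ± 0.92 in flight cells and 4.44 ± 0.25 in flight seedlings (adjusted p = 0.000109), with 1 cell array and 0 seedling arrays above background. On the ground JAZ8 was also called higher (adjusted p = 0.00829), with no cell array above background, no fold from the bound and an adjusted p of 0.126 with quantile normalization.

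Of the transcription factors, JAM3, a relative of MYC2 that opposes it, was called lower in cells in flight (adjusted p = 0.00853) and on the ground (adjusted p = 0.00229). On the ground the bound gave no fold. In flight the bound rested on the background of flight cell replicate 5 (7.55), so no fold is given. The other flight cell arrays had backgrounds of 9.19 to 10.3, against a flight seedling mean of 9.765 for JAM3. MYC3, a partner of MYC2 that was above background on all 12 ground arrays, averaged 11.13 ± 0.44 in ground cells and 12.59 ± 0.78 in ground seedlings (-1.46, SE 0.56, adjusted p = 0.0362). With quantile normalization the MYC3 difference was -0.40 (adjusted p = 0.641), and the call was also lost without any 1 of ground cell replicates 1 or 6 or ground seedling replicates 1, 2, 4 or 6 (-1.50 to -1.17), and in a fit of the 12 ground arrays alone (adjusted p = 0.0636).

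ANAC019 averaged 9.25 ± 2.05 in flight cells and 6.69 ± 1.08 in flight seedlings (adjusted p = 0.00548, and 0.0747 with quantile normalization). On the ground ANAC019 averaged 9.54 ± 1.57 in cells and 6.00 ± 1.11 in seedlings (adjusted p = 0.000441, and 0.00975 with quantile normalization), with 3 ground cell arrays above background. MYB21 read 8.52 ± 1.08 in flight cells and 6.12 ± 0.85 in flight seedlings (adjusted p = 0.00215), with 2 cell arrays and 0 seedling arrays above background. MYB24 averaged 8.99 ± 0.90 in ground cells and 6.28 ± 1.31 in ground seedlings (adjusted p = 0.00135), with 1 array above background in each.

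Wide gaps were seen in other responsive genes. JR1, a jasmonate-responsive lectin, averaged 6.57 ± 0.71 in flight cells and 11.26 ± 0.34 in flight seedlings (adjusted p = 4.65e-07). With flight cells set to their background, JR1 was at least 3.21-fold lower there. That bound includes flight cell replicate 5 (background 7.55) and would be smaller without it. The other flight cell arrays had backgrounds of 9.19 to 10.3, under the lowest flight seedling reading of 10.76. On the ground JR1 averaged 7.72 ± 1.72 in cells and 10.65 ± 1.03 in seedlings (-2.93, SE 0.65, adjusted p = 0.000661). PR4, a chitin-binding defence protein, averaged 9.25 ± 1.34 in flight cells and 12.75 ± 0.29 in flight seedlings (-3.49, SE 0.61, adjusted p = 2.33e-05), and 9.58 ± 1.11 in ground cells and 12.94 ± 0.19 in ground seedlings (-3.36, SE 0.61, adjusted p = 6.58e-05). Cells and seedlings did not overlap for PR4 under either condition, as for 16.6% of all probe sets in flight and 9.7% on the ground.

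The responsive genes called higher in cells were dim. PDF1.2A read above background on 1 flight cell array and 0 flight seedling arrays (adjusted p = 7.76e-05). CLH1, a chlorophyllase, read 8.68 ± 1.09 in ground cells and 5.75 ± 1.05 in ground seedlings (adjusted p = 0.000985), also with 1 cell array and 0 seedling arrays above background. TPS04 in flight and CORI3 on the ground were called with 0 cell arrays above background (adjusted p = 0.0097 and 0.001), and the TPS04 call was lost with quantile normalization (adjusted p = 0.194).

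Within the ground seedlings, replicate 1 read highest for 6 of the 8 members: AOS, MYC2, JAZ1, JAZ5, JAZ7 and JAZ10. The lead over the next array was only 0.03 for AOS and 0.17 for JAZ5. JAZ5 and JAZ10 were each above background on only 2 ground seedling arrays. It was the highest of the 6 arrays for 21.2% of all probe sets and for 23 of the 57 further genes (40.4%). JAZ1 read 12.73 there, against at most 11.30 on the other 5 arrays, and JAZ7 read 9.61, against at most 8.19. The shared VSP probe set went the other way, with its lowest reading, 4.54, on the same array.

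The lead of that array was wider in some of the further genes, which were picked here after their values were seen. ANAC055 read 13.90, against at most 9.75 on the other 5 ground seedling arrays, and KAT2 (AT2G33150), a thiolase of beta-oxidation, read 13.66, against at most 11.31. JOX2 read 12.39 against at most 10.45, and JAZ6, JAZ12 and MYC3 also led by over 1 log2 unit, as did 10 of the 57 in all. The share of all probe sets with such a lead is not given here. Others of the 57 read lowest of the 6 on the same array, among them FAD3 (7.02, against up to 10.43) and JR1 (8.55, against up to 11.17). Without this array the ANAC055 difference between flight and ground was -0.53 (adjusted p = 0.563). The background of this array was log2 7.89, and the part of its background and of its low share of probe sets above it in these readings was not tested.

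**Figure D5:**
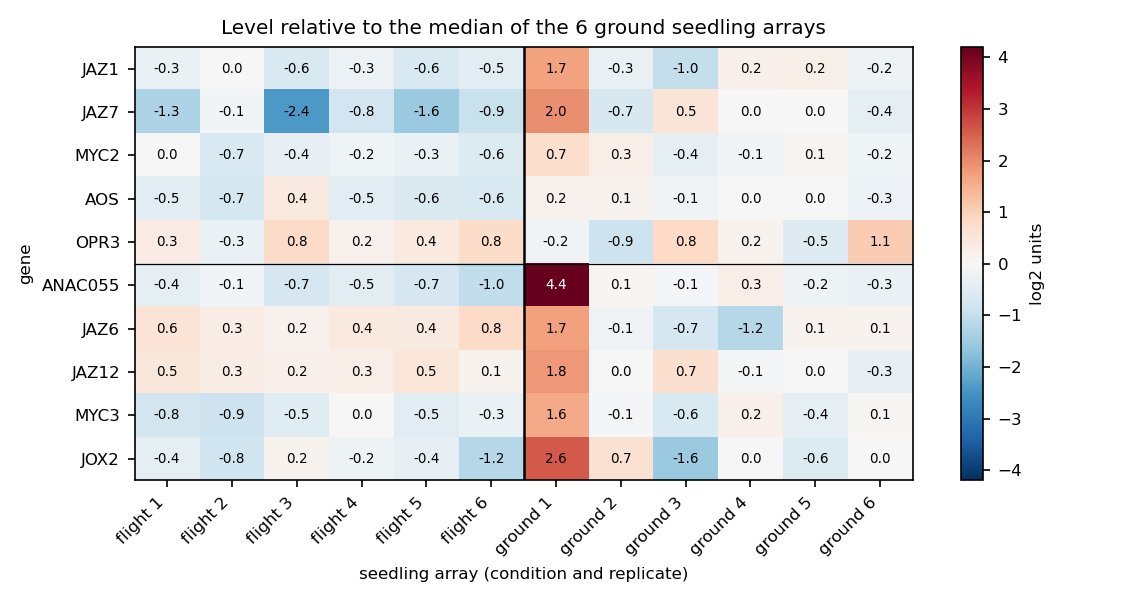
Level of 5 members (top) and 5 further jasmonate genes (bottom) on each seedling array, as the difference in log2 units from the median of the 6 ground arrays (red above, blue below); flight arrays stand left of the black line and ground arrays right of it, and the genes below the line were picked after their values were seen. Ground replicate 1 is the reddest column, JAZ7 is blue to near white on all 6 flight arrays, and OPR3 and AOS (highest there by only 0.03) do not share the red column. Further genes that read lowest on that array, such as FAD3 and JR1, are not drawn.

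The genes most like each member over the 12 arrays of a material were found among single-gene probe sets above background on at least 6 of them. The correlations are descriptions over arrays that share their preparation, and with 12082 candidates in seedlings and 2170 in cells high values are found by search. In seedlings JAZ1 was closest to AT1G54050 (r = 0.95), AT1G48840 (0.943) and AT1G03740 (0.937). JAZ7 was closest to AT5G65660 (r = 0.913), PPH, a pheophytinase of chlorophyll breakdown (0.906), and AT3G47850 (0.895). MYC2 was closest to AT5G51160 (r = 0.907), AGT3 (0.902) and AT4G33150 (0.901).

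The synthesis genes had other nearest genes in seedlings: AT3G46690, AT5G20170 and AT5G44290 for AOS (r = 0.901, 0.892 and 0.865) and AT4G00500, DDI1 and AT1G71090 for OPR3 (r = 0.864, 0.838 and 0.837). In cells JAZ1 was closest to MMZ3 (r = 0.938) and AOS to AT5G60070 (r = 0.808). No member was among the 3 nearest genes of another. Among the 28 pairs of members r ran from -0.52 to 0.74 in seedlings, with a median of 0.15, and the highest were MYC2 with JAZ1 (0.735) and JAZ1 with JAZ7 (0.705). In cells the 28 pairs ran from -0.48 to 0.71, with a median of 0.00.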

How the data were processed

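Total RNA from 24 samples was amplified to cDNA, labelled with biotin and hybridised to single-label Affymetrix arrays. Per the submitters' processing notes, MAS5 and Affymetrix Expression Console (version not given) made the deposited values, which are intensity on a linear scale. Each array's mean, trimmed by 2% at both ends, equals 500, which is the scaling the authors left in the deposited intensity. Their deposited comparison tables give the log2 ratio of flight over ground in each material, per the file headers, along with its q-value and p-value, and the test behind them is not given in the sources used here.

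Levels were computed as log2(intensity + 16), a pseudocount that shrinks differences of dim genes. Of 22810 probe sets, 64 controls were left out and 22746 tested, with no other filter or scaling. The flight contrasts were fitted on the 12 arrays of a material, and the contrasts between materials and the difference of effects on the 4 group means of 24 arrays, with two-sided tests from eBayes after lmFit (limma 3.58.1, R 4.3.3). Adjusted p-values are Benjamini-Hochberg, taken across every tested probe set, with a threshold of 0.05. Exact permutation tests over arrays are two-sided and unadjusted. The fits were tested on simulated data. For a group with no array above background, the bound sets each array at its background level, and no fold is given where most arrays of the higher group were under background too. The number of arrays limits the precision.

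The members and lists were chosen with earlier results of these data known. The genes named are all members; of each further list and comparison, up to 2 called genes with the largest change in each direction, or the smallest p where none was called; and the 3 genes most correlated with each member measured in a material. Alternatives were pseudocounts of 1 and 64, quantile normalization, a background filter, a trended prior, the position as a block, single canisters, other array sets and leaving out each array. Software also included Python 3.11.15 with numpy 2.4.6 and pandas 2.3.3, and figures were drawn by matplotlib 3.10.9.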

Additional observations from a re-analysis of the deposited data

Results flagged for a closer look

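In flight seedlings, AOS on replicate 3 (10.985) stood apart from the other 5 flight arrays, the next of which read 10.109. The gap was 0.777 of the group's range, above the critical ratio of 0.625 for 6 arrays. This was 1 of 36 groups tested, of which chance flags about 1 in 20. Replicate 3 was also the array with the lowest JAZ7 reading of the flight seedlings (5.25).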

How the results depend on the processing

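No member passed the threshold in a flight comparison under any setting: 0 of 642 member values, the reported ones included. Of 929 member values under alternatives, 812 kept their direction and side of the threshold, 66 reversed, 38 lost a call and 13 gained one. Of 967 values of further named genes, 24 lost a call and 0 reversed.

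In cells limma called 8 probe sets, and 1 with pseudocount 1, 15 with pseudocount 64, 0 with quantile normalization (1314 at an unadjusted p under 0.05), 1 above background, 22 with a trended prior and 39 in the fit of all 24 arrays; without 1 array, 1 to 11. In seedlings it called 4, and 0 with pseudocount 64, above background, with a trended prior, with the replicate block, with all 24 arrays and in canister A alone (612 to 1922 at an unadjusted p under 0.05); without 1 array, 0 to 10. For the difference of effects it called 0, 4 with pseudocount 64, 1 with a trended prior, and 0 to 5 without 1 array. Between materials 8675 calls on the ground became 4427 with quantile normalization and 2943 above background, and 10331 in flight became 6009 with quantile normalization and 3345 above background. The share of higher calls was 72.4% in each and 41.6% on the ground and 46.3% in flight with quantile normalization. Members called on the ground were 2, with 4 at pseudocount 64 or a trended prior, 1 with quantile normalization, 1 of 4 above background and 2 to 4 without 1 array. In flight they were 5, with 3 at pseudocount 1, 1 with quantile normalization, 2 of 4 above background and 2 to 6 without 1 array.

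Reversed values in canister B alone were LOX2 -0.18, OPR3 -0.32, JAZ7 -0.021 and JAZ10 0.14 in cells. With quantile normalization MYC2 was -0.069 for the difference of effects and LOX2 -0.48 between ground materials. Leaving out 1 array, these ranges crossed 0 in cells: LOX2 -0.31 to 0.54, OPR3 -0.22 to 0.59, JAZ5 -0.65 to 0.28, JAZ7 -0.003 to 0.62, JAZ10 -0.58 to 0.18 and VSP -0.996 to 0.23. In seedlings JAZ5 ran from -0.69 to 0.11 and VSP from -0.18 to 0.66. For the difference of effects OPR3 ran from -0.50 to 0.31, MYC2 from -0.45 to 0.35 and JAZ5 from -0.34 to 0.59. Between materials LOX2 ran from -0.072 to 0.58 and JAZ7 from -0.42 to 0.22 on the ground, and AOS from -0.22 to 0.30 in flight. The causes were not tested.

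The replicate block by hardware position left 8 calls in cells and 0 in seedlings, with JAZ7 at -1.42 (adjusted p = 0.581). Arrays of the same position deviated from their group means with r from -0.053 to 0.104 in cells and -0.02 to 0.057 in seedlings, and 3 of 6 in cells and 2 of 6 in seedlings matched their own position best, so the numbers were not taken as pairs. Canister G alone was not run for the materials. Signal over background limits the cells: 6 of 8 members were dim there.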

Other observations

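The genes of the further lists with the smallest p for a difference between the flight effects of cells and seedlings were read from the fit over 24 arrays, and 0 of the 57 passed in limma, with 5 at an unadjusted p under 0.05, against 6.63% of all probe sets. OPCL1 had a difference of -2.53 (SE 0.98, adjusted p = 0.605), JOX2 2.03 (SE 0.99, adjusted p = 0.737), MYC3 1.76 (SE 0.80, adjusted p = 0.705), PDF1.2A 1.96 (SE 0.89, adjusted p = 0.707) and JAZ3 1.44 (adjusted p = 0.813). MYC3 was the 1 of these above background on every array: it averaged 12.28 ± 0.73 in flight cells and 11.13 ± 0.44 in ground cells, and 11.97 ± 0.31 in flight seedlings and 12.59 ± 0.78 in ground seedlings (SD, n = 6 each). Its ground seedling value includes 14.05 on replicate 1, the array that also read highest for JAZ1 and JAZ7.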
